A study of Sus scrofa with 27 samples.

Results

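The mitochondrial ribosome translates the few messenger RNAs that mitochondrial DNA encodes, all of them for subunits of the respiratory chain and the ATP synthase. Its proteins, by contrast, are made from nuclear genes and imported, and most of these genes carry the symbols MRPL (large subunit) or MRPS (small subunit). Granulosa cells surround the oocyte and line the follicle, and their mitochondria also house the first step of steroid synthesis. Genes were taken as members when their pig Ensembl identifier mapped to a symbol that begins with MRPL or MRPS and a digit and when their mean count reached 5 over the libraries. This gave 65 genes among the 35670 identifiers in the count files, 40 of the large and 25 of the small subunit by symbol. The rule itself uses no difference between diets. All 65 passed the count limit, with MRPS2 the lowest at a mean count of 16.1 and MRPL3 the highest at 3648, so no gene lay close to the limit on either side. Further MRPL and MRPS genes, which have no symbol in the table used, were not analysed here, so the counts by subunit do not cover the whole family.

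The libraries came from mural granulosa cells (GCs) of primiparous TN70 sows, a wild-type cross of Large White and Norwegian Landrace, with 1 library per sow. The full-fed (FF) sows received 6.5 kg of feed a day and the restricted (RES) sows 3.25 kg a day over the final 2 weeks of lactation. Both groups were then fed alike until the ovaries were collected 2 days after weaning, and the cells were cut from the wall of the largest healthy follicle by laser capture. There were 13 FF and 14 RES libraries, each a separate animal, so the tests measure the spread between sows. The sows had been picked for the study by their weight loss, the RES sows with the highest and the FF sows with the lowest, so the groups differ in weight loss as well as in diet. The study also reports that the sampled follicle was smaller in RES than in FF sows, so the groups differ in follicle size too. The part of follicle size in the results was not tested. In bulk samples such as these, fewer cells of a kind and less RNA per cell cannot be told apart.

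Total counts ran from 12299220 to 16021200 in FF and from 12942198 to 18120922 in RES, with medians of 13490500 and 15232600. The 65 genes together held 10157 to 26013 counts per FF library and 20252 to 41913 per RES library. Identifiers with at least 1 count numbered 22787 to 23999 in FF and 21604 to 24017 in RES. FF sow 10 and RES sow 3 stood apart for these genes, as the lowest and highest library in their summed level, and results are also given without them. The labels name sow 9 as the FF sow left out for RNA quality, whereas the study's supplementary list puts the poorest RNA at FF sow 10, so the quality group of FF sow 10 is uncertain. From that list, libraries were split by how many of their bases reached a quality score of 20 into an upper group (7 FF, 7 RES) and a lower group (6 FF, 7 RES). Among the granulosa markers VCAN, INHBA and CYB5A were abundant and AMH was barely detected. Of the 9 tested, 7 had a log2 fold change above 0, with a median of 0.21. This median was 0.03 within the upper and 0.14 within the lower quality group, and 1 of the 9, HSD17B1, differed between the diets. The theca markers summed to 614 to 2846 CPM (counts scaled by each library's total after TMM adjustment) in FF and 190 to 2411 CPM in RES, and 7 of the 8 tested had a log2 fold change below 0, with a median of −0.61 and CYP11A1 called (−1.25, adjusted p = 0.011). The endothelial markers summed to 59.8 to 107 CPM in FF and 40.1 to 124 CPM in RES, with 6 of 7 below 0 and CDH5 (−0.52, adjusted p = 0.017) and CLDN5 (−0.76, adjusted p = 0.014) called. All 4 immune markers tested were below 0 with none called, and of 2 erythroid markers HBB was called (−1.80, adjusted p = 0.024). The part of these marker levels in the results for the mitochondrial ribosomal protein genes was not tested.

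In GCs of RES sows, mitochondrial ribosomal protein transcripts were more abundant for 17 of the 65 genes (26.2%), and none was called lower. The test was edgeR's quasi-likelihood test on the deposited counts with a call at a Benjamini-Hochberg adjusted p under 0.05. Over all 17467 identifiers tested the same rule called 13.0%, of which 7.77% were higher and 5.19% lower in RES. Fold changes are RES relative to FF throughout. The changes were small, with called genes between 0.36 and 0.66 on the log2 scale, standard errors (SE) of 0.098 to 0.18 and adjusted p values of 0.0020 to 0.048. Of all 65 genes, 58 had a log2 fold change above 0, against 47.1% of all identifiers. The median was 0.24, against −0.02 over all identifiers. Of the 48 genes that were not called, 41 lay above 0, with adjusted p values from 0.062 to 0.98. At an unadjusted p under 0.05 stood 31 of the 65 genes, where the background was 28.8%. The 2 groups of sows overlapped for every gene. In 8 of the 65 genes the FF median was exceeded by 13 or 14 RES sows, beside 7.12% of all identifiers. DESeq2 called 18 of the 65, the 17 among them, beside a background of 16.0%.

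Over all libraries the median log2 fold change was 0.24 for both the large and the small subunit, with quartiles of 0.14 and 0.38 for the large and 0.11 and 0.36 for the small subunit. Of the 40 large subunit genes 12 were called, and of the 25 small subunit genes 5. MRPS30 and MRPS18A carry small subunit symbols although their proteins sit in the large subunit. When both were moved, 13 of 42 large and 4 of 23 small subunit genes were called, and the medians stayed at 0.24. Proteins with a bacterial counterpart and those found in mitochondrial ribosomes alone were also alike, with 9 of 37 and 8 of 28 genes called and medians of 0.24 each. Within the upper quality group the medians were 0.31 for the large and 0.20 for the small subunit, and within the lower 0.22 and 0.27. No test was made between these groups of genes.

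**Figure D1:**
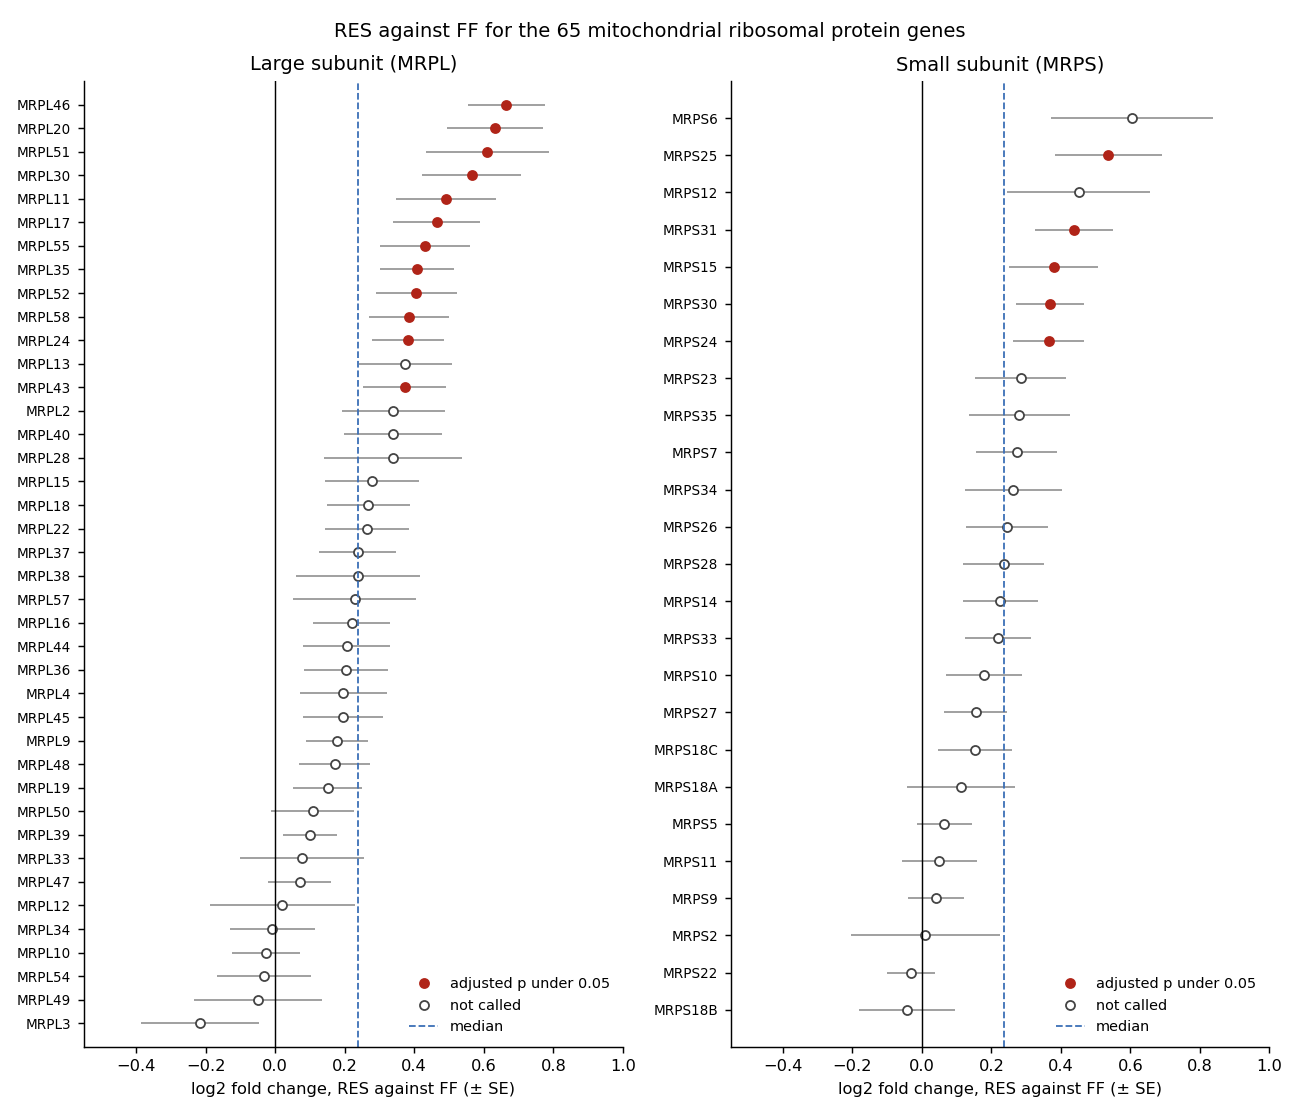
Log2 fold change of RES against FF (x axis, log2 scale) with its SE for each of the 65 genes, the large subunit at the left and the small subunit at the right; filled points were called at an adjusted p under 0.05 and the dashed line is the median. Most points lie to the right of 0 in both panels, from −0.22 for MRPL3 to 0.66 for MRPL46, and both medians are at 0.24.

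MRPL46, a protein of the large subunit's central protuberance, changed most. Its level in FF was 8.34 CPM in the lowest sow, 12.0 at the median and 16.3 in the highest, and in RES 13.2, 18.9 and 27.5 CPM. All 14 RES sows lay above the FF median and 11 above the highest FF sow. Its log2 fold change of 0.66 with an SE of 0.11 had an adjusted p of 0.0020, and the value stayed between 0.61 and 0.71 when each sow was left out in turn. The upper quality group gave 0.65 and the lower 0.68.

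MRPL20, the counterpart of a bacterial protein that joins the large ribosomal RNA early in assembly, went from 13.3, 20.3 and 26.9 CPM in FF (lowest, median, highest) to 18.6, 31.6 and 43.5 CPM in RES. In 13 of the 14 RES sows it was above the FF median, and its log2 fold change of 0.63 had an SE of 0.14 (adjusted p = 0.0036). MRPL51, found in mitochondrial ribosomes but not in bacterial ones, had 10.5, 18.1 and 34.3 CPM in FF and 14.5, 31.5 and 44.1 CPM in RES. These ranges overlapped widely, with 5 RES sows above the highest FF sow, and the log2 fold change of 0.61 had an SE of 0.18 (adjusted p = 0.022). MRPL30, another protein with a bacterial counterpart, had 25.5, 53.7 and 79.3 CPM in FF and 46.6, 86.8 and 113.7 CPM in RES. Its log2 fold change of 0.57 had an SE of 0.14 and an adjusted p of 0.0097, with 9 RES sows above every FF sow.

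MRPL11 belongs to the base of the stalk, where translation factors dock. It had 8.43, 12.8 and 16.7 CPM in FF and 9.28, 16.7 and 33.7 CPM in RES, and the highest value was that of RES sow 3. Its log2 fold change was 0.49 with an SE of 0.14 (adjusted p = 0.024). Without that sow it was 0.38, and without FF sow 10 as well it was 0.35 and no longer called (adjusted p = 0.051). Of the other stalk proteins, MRPL10 was at −0.03 (SE 0.099, adjusted p = 0.89) and MRPL12 at 0.02 (SE 0.21, adjusted p = 0.96), and the difference from MRPL11 was not tested. MRPL58, also known as ICT1, is a peptidyl-tRNA hydrolase that became part of the mitochondrial ribosome. It had 11.5, 14.6 and 18.4 CPM in FF and 13.4, 17.8 and 32.5 CPM in RES. Both its extremes were higher in RES, and the log2 fold change of 0.39 had an SE of 0.12 (adjusted p = 0.027).

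The remaining called genes of the large subunit were MRPL17 (0.46), MRPL55 (0.43), MRPL35 (0.41), MRPL52 (0.41), MRPL24 (0.38) and MRPL43 (0.37). MRPL17, MRPL35, MRPL24 and MRPL55 have bacterial counterparts, and that of MRPL24 is among the first proteins to bind the large ribosomal RNA. MRPL52 and MRPL43 do not. In the RefSeq annotation all exon bases of MRPL43 also lie in exons of TWNK, the mitochondrial DNA helicase gene. The counting used no strand option and Ensembl genes, whose overlap was not examined, so the effect on the counts of MRPL43 is uncertain. Its adjusted p was 0.038, and 11 of the 27 fits without a single sow lost the call, with the log2 fold change lowest at 0.32 without RES sow 3. The call of MRPL55 (adjusted p = 0.027) was lost without RES sow 1 (adjusted p = 0.0507) or RES sow 9 (0.0505).

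Of the small subunit, MRPS25, MRPS31, MRPS15, MRPS30 and MRPS24 were called. MRPS25, which has no bacterial counterpart, had 4.03, 5.24 and 8.89 CPM in FF and 4.95, 8.12 and 12.5 CPM in RES. The log2 fold change of 0.54 had an SE of 0.15 and an adjusted p of 0.022, and 27.8% of its exon bases are shared with NR2C2, a nuclear receptor gene. MRPS31 had 15.5, 26.2 and 31.8 CPM in FF and 22.7, 35.3 and 44.9 CPM in RES, where 10 sows exceeded every FF sow. This gave 0.44 on the log2 scale with an SE of 0.11 (adjusted p = 0.012). MRPS24, the counterpart of bacterial S3 at the entry of the mRNA channel, had 8.20, 11.11 and 13.8 CPM in FF and 11.3, 13.5 and 22.4 CPM in RES. All 14 RES sows were above the FF median, with 0.36 on the log2 scale, an SE of 0.10 and an adjusted p of 0.020.

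MRPS30 reached 0.37 (SE 0.098, adjusted p = 0.014), from 34.6, 40.6 and 51.1 CPM in FF to 39.8, 55.6 and 73.0 CPM in RES. MRPS15, whose bacterial counterpart binds the small ribosomal RNA directly, reached 0.38 (SE 0.13), but with an adjusted p of 0.048 its call was close to the limit. It held in 8 of the 27 fits without a single sow, and the adjusted p was highest, at 0.082, without RES sow 3. In RES 8 sows had more MRPS15 than the highest FF sow at 60.2 CPM.

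Not every gene of the set was higher in RES. MRPL3, the large subunit protein whose bacterial counterpart reaches toward the peptidyl transferase centre, had the lowest log2 fold change of all, −0.22 (SE 0.17, adjusted p = 0.42). It had 61.8, 270 and 499 CPM in FF and 163, 244 and 300.2 CPM in RES, and the FF values spread more widely on both sides. FF sow 10 was at 61.8 CPM and the next FF sow at 193 CPM. The upper quality group gave −0.48 and the lower, which holds FF sow 10, gave 0.08. Also near 0 were MRPS22 (−0.03), MRPS18B (−0.04), MRPL49 (−0.05), MRPL34 (−0.01), MRPL54 (−0.03), MRPS2 (0.01), MRPS9 (0.04) and MRPS5 (0.06), and 13 genes in all lay within 0.1 of 0. For MRPS22 the SE was 0.070, and for MRPS2 0.22, so the precision of these values differed. MRPS22, MRPS18B and MRPL49 lay above 0 in the lower quality group.

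MRPS6 had the largest change of the genes that were not called. It is the counterpart of bacterial S6 and had 47.2, 123 and 260 CPM in FF and 81.2, 210 and 328 CPM in RES, with 13 RES sows above the FF median. The log2 fold change of 0.61 carried an SE of 0.23 (adjusted p = 0.080). The upper quality group gave 0.20 and the lower 1.06, with an unadjusted p of 0.059 for the difference between them in edgeR (adjusted p = 0.47). It was called without FF sow 3 (0.72), FF sow 4 (0.69) or RES sow 4 (0.68). Of its exon bases 10.5% are shared with SLC5A3, the inositol transporter gene. MRPS12, a protein of the decoding centre, was at 0.45 (SE 0.21, adjusted p = 0.14) with 1.52 to 4.95 CPM in FF and 2.28 to 9.85 CPM in RES. MRPL13 (0.37, adjusted p = 0.062) and MRPL2 (0.34, adjusted p = 0.12) followed. MRPL13 was called in 6 of the 27 fits without a single sow, those without FF sow 3, 4 or 13 or RES sow 4, 7 or 10, and MRPL2 in the one without FF sow 1 (0.43).

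**Figure D2:**
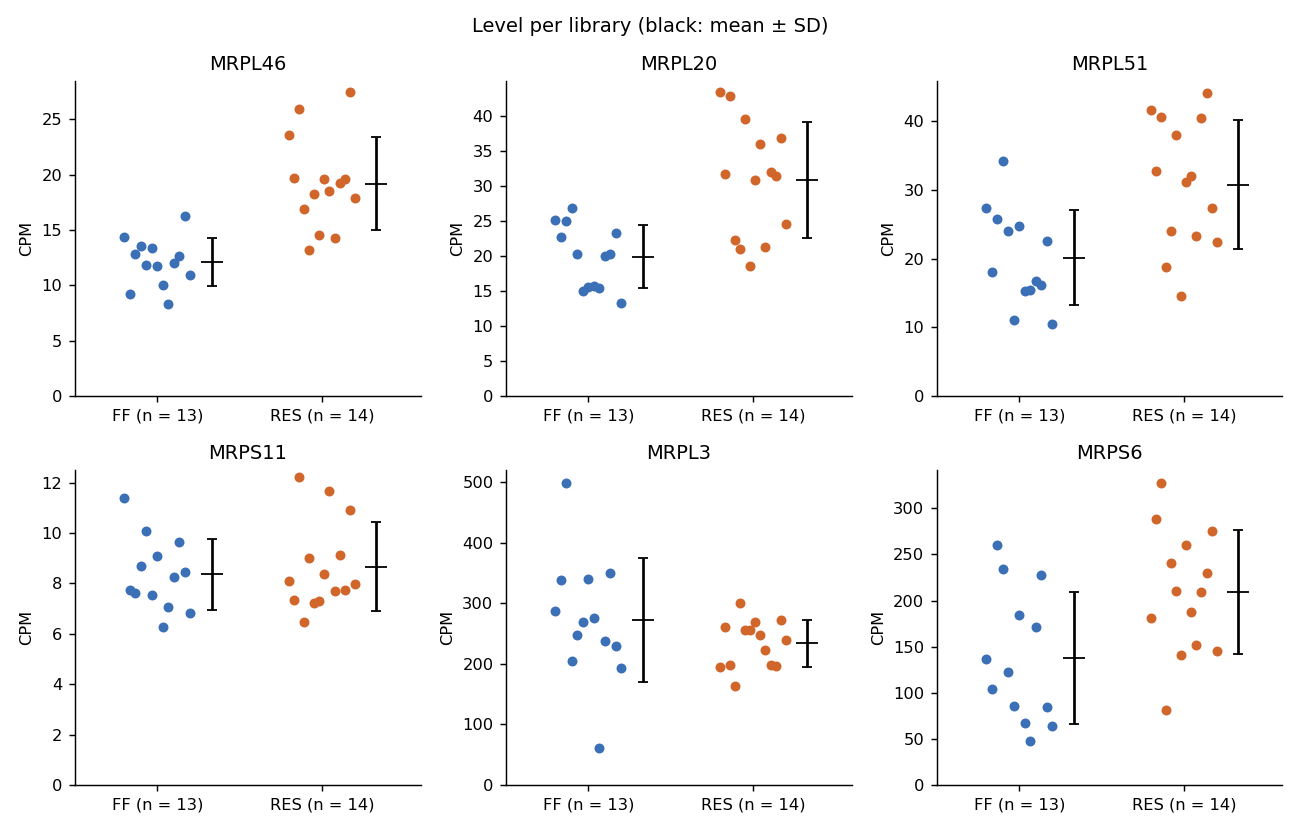
Level in CPM (y axis, linear, from 0) of 6 genes in each FF and RES library, with the mean and SD in black. MRPL46, MRPL20 and MRPL51 are higher in RES, MRPS11 is at 0.05 on the log2 scale, and in MRPL3 and MRPS6, neither of which was called, the FF sows are widely spread.

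The transcripts of the set differed widely in level. Levels of different genes are compared as CPM per kilobase of merged RefSeq exons, which understates genes with long alternative exons. They ran from 0.81 for MRPS2 to 166 for MRPL3, the mean over all libraries. After MRPL3 came MRPS6 at 116, MRPL30 at 81.9 and MRPL13 at 73.0 CPM per kilobase. The lowest of the large subunit was MRPL28 at 1.42. In the small subunit MRPS15 (45.5) and MRPS26 (26.0) followed MRPS6. MRPS30 stood at 2.50, with merged exons of 19258 bases. The median was 14.8 CPM per kilobase for large and 7.86 for small subunit genes.

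Of the 65 genes, 19 start within 500 bases of another gene on the opposite strand in the RefSeq annotation of Sscrofa11.1, so that both are read outward from one stretch of DNA. One such pair joins members of the set. MRPS11 (chromosome 1, 191310547 to 191321951) and MRPL46 (191321990 to 191331320) are 39 bases apart. MRPS11, the counterpart of bacterial S11 in the platform of the small subunit, had 6.29, 8.25 and 11.4 CPM in FF and 6.48, 8.05 and 12.2 CPM in RES. Its log2 fold change of 0.05 had an SE of 0.11 (adjusted p = 0.80), beside 0.66 for MRPL46. The ratio of MRPL46 to MRPS11 CPM was 1.17, 1.46 and 1.92 in FF (lowest, median, highest) and 1.46, 2.29 and 2.91 in RES. All 14 RES sows were above the FF median ratio. This pair was chosen after its values had been seen, so its ratio was given no test.

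Stretches between genes that start back to back, each reaching 30 bases into both genes, are shown for MRPL46, MRPL51 and MRPL30, since these have the largest changes among the called genes that start this way. They are written 5′ to 3′ on the strand of the named gene, in RefSeq's Sscrofa11.1, and capitals mark a match to the letters CCGGAAG of ETS factors such as GABP or to the NRF1 motif (GCGC, any base, then TGCGC), on either strand.
MRPL46, chr1:191321922-191322019, plus strand, shared with MRPS11, no match to these letters: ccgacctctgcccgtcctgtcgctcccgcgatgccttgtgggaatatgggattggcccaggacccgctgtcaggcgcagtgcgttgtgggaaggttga
MRPL51, chr5:64167381-64167447, plus strand, shared with NCAPD2, ETS letters on the other strand: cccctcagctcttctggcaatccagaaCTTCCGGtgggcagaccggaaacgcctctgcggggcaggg
MRPL30, chr3:55054410-55054504, minus strand, shared with MITD1, NRF1 letters: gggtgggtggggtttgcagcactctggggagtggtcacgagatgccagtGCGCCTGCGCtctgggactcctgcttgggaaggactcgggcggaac

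NCAPD2, a condensin subunit that starts 8 bases from MRPL51, rose by 0.95 (SE 0.20, adjusted p = 0.0032), and MITD1, 36 bases from MRPL30, rose by 0.34 (SE 0.10, adjusted p = 0.028). MTBP, 217 bases from MRPL13, rose by 0.82 (SE 0.16, adjusted p = 0.0021) and the chaperonin gene TCP1, 103 bases from MRPL18, by 0.39 (SE 0.12, adjusted p = 0.032), while MRPL13 and MRPL18 were not called. IMMT, beside the called MRPL35, was at 0.07 (adjusted p = 0.50). Of the 15 members whose partner was tested, both genes were called in 2, the member alone in 3, the partner alone in 3 and neither in 7. Over all identifiers 13.0% were called. The pair of MRPL46 and MRPS11 stands in these counts once from each side.

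The 300 bases around each start, 250 before and 50 after, were searched for short motifs on both strands in 20665 RefSeq genes, all of them protein-coding except MRPS12, whose record is listed there as a noncoding RNA. NRF1 and GABP are named as activators of nuclear genes for mitochondrial proteins. The letters CCGGAAG were present at 17 of the 65 genes (26.2%), against 10.6% of all genes, and the NRF1 motif at 7 (10.8%), against 6.07%. The YY1 letters AAGATGGC were present at 6 (9.23%), against 2.41%. Those of a GC box, GGGCGG, were at 60.0% and 48.9%, of CCAAT at 30.8% and 35.7%, and of the E-box CACGTG at 12.3% and 7.64%. TATAAA was at 12.3% and 11.6%, and TCAAGGTCA, the half-site of the oestrogen-related receptors, at none of the 65 and at 0.35% of all genes. The median GC content of these windows was 60.0% for the 65 and 58.0% for all genes, and the part of GC content in these shares was not tested. The ETS letters were at 7 of the 17 called genes and at 10 of the 48 others. A match is a description of the letters and no evidence of binding.

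Averaged over the 65 genes as log2(CPM + 1), the set mean per library came to 3.99 ± 0.20 (SD, n = 13) for FF and 4.23 ± 0.21 (SD, n = 14) for RES. The difference of 0.23 was about as large as 1 SD between sows. In FF the set mean was 3.55 in the lowest sow, 4.09 at the median and 4.21 in the highest, and in RES it was 3.91, 4.27 and 4.69. Of the 14 RES sows, 9 lay above every FF sow and 5 within the FF range, among them RES sow 7 and RES sow 4 with the lowest values. The lowest FF libraries were sow 10 at 3.55 and sow 14 at 3.67. Without FF sow 10 and RES sow 3 the means were 4.03 ± 0.15 (SD, n = 12) and 4.19 ± 0.17 (SD, n = 13), a difference of 0.16. Of all 65 genes, 28 were lowest among FF sows in sow 10 and 38 highest among RES sows in sow 3. Without these 2 sows 12 of the 65 genes were called, against a background of 12.8%, and the median log2 fold change was 0.17. The calls of MRPL11, MRPL55, MRPL58, MRPS15 and MRPL43 were lost, with adjusted p values of 0.051 to 0.090. With the sow number as a block 13 of the 65 were called, beside 8.67% of all identifiers.

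**Figure D3:**
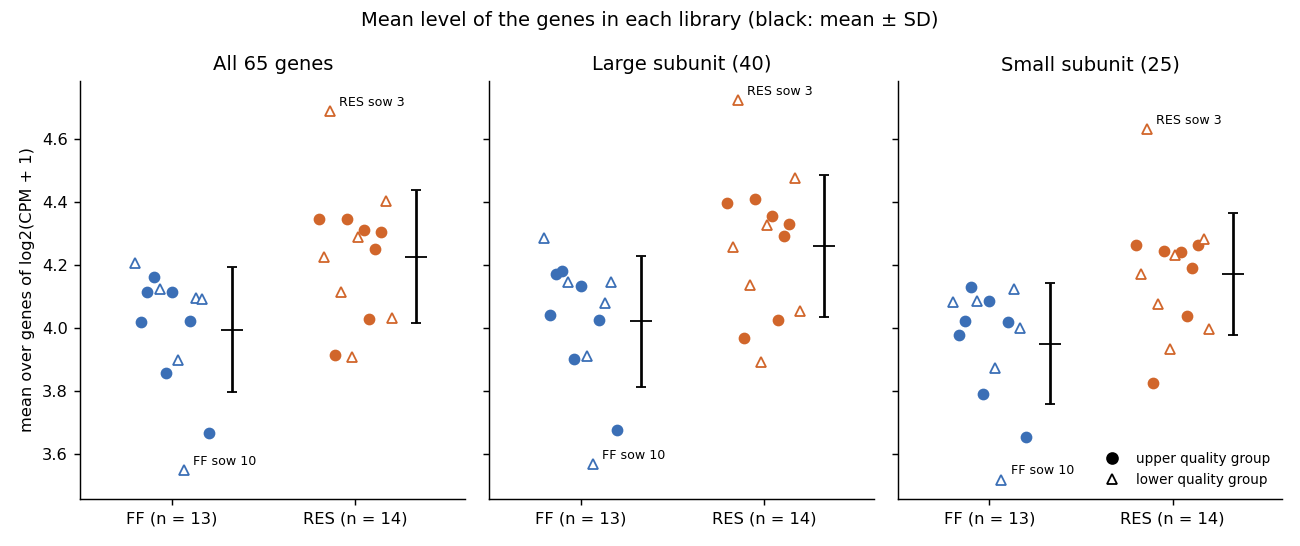
Mean of log2(CPM + 1) in each library (y axis) over all 65 genes, the 40 large and the 25 small subunit genes, for FF and RES, with the mean and SD in black; circles are the upper and triangles the lower quality group. RES is higher by 0.23, 0.24 and 0.22, with the groups overlapping, and FF sow 10 is the lowest and RES sow 3 the highest library in every panel.

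The means of the large and small subunit genes varied together from sow to sow. The 2 means had a Pearson's r of 0.97 over the 27 libraries, which share their scaling. The large minus the small subunit mean came to 0.07 ± 0.07 (SD, n = 13) for FF and 0.09 ± 0.06 (SD, n = 14) for RES. Single genes followed the mean of the other 64 with a median r of 0.72, and 52 of the 65 had an r above 0.5. MRPS15 followed it most closely (r = 0.91) and MRPL49 least (r = −0.05), although MRPL49 had an r of 0.55 within FF and −0.30 within RES. Within FF it was MRPL12 that followed the mean least (r = 0.02). Of the exon bases of MRPL49, 27.7% are shared with SYVN1 and FAU. MRPL3 followed the mean in FF (r = 0.68) but not in RES (r = −0.02).

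The set mean moved with measures of the library. It was lower where more identifiers were detected, with a Pearson's r of −0.66 and a Spearman's rho of −0.64 over all 27 libraries. Within RES the r was −0.89 (rho −0.89, n = 14), and −0.81 without RES sows 3 and 13, the 2 farthest from the median. Within FF it was −0.11 (rho −0.09, n = 13). With the total count the set mean had an r of 0.62 over all libraries, 0.29 in FF and 0.61 in RES. With the share of counts in the 100 most abundant identifiers it had an r of −0.28 over all libraries. Within FF this was −0.56, and −0.0063 without FF sows 10 and 6, the 2 farthest. Within RES it was 0.05, and −0.28 without RES sows 13 and 2. With the mean of the granulosa markers the r was 0.68 over all libraries, 0.35 in FF and 0.74 in RES, and 0.55, 0.20 and 0.42 without the 2 farthest libraries of each. With the RNA integrity number of the study's list, where FF sow 10 is uncertain, the r was 0.67 in FF and 0.29 without FF sows 10 and 11. In RES it was 0.04, and 0.53 without RES sows 3 and 11. With the share of bases that reached quality 20 the r was −0.23 over all libraries, and 0.08 without RES sows 3 and 5. All these values describe the libraries and were not tested.

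**Figure D4:**
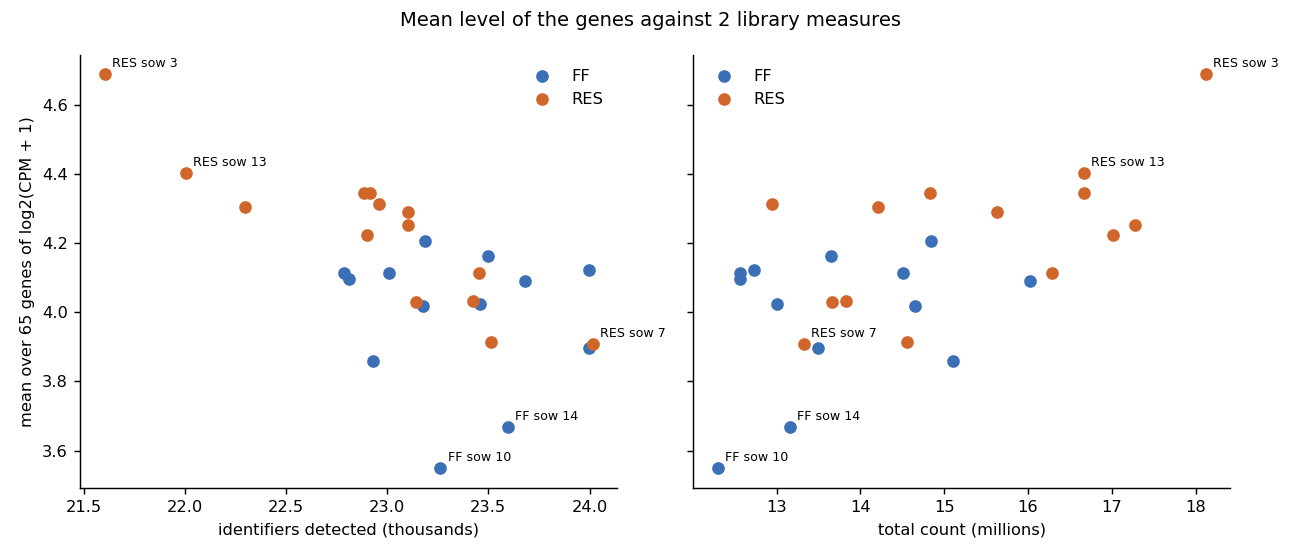
Mean of log2(CPM + 1) over the 65 genes in each library (y axis) against the number of identifiers detected (left) and the total count (right), both scaled as their axis labels state, with FF in blue and RES in orange. In RES the set mean falls with the number of identifiers (r = −0.89) and rises with the total count (r = 0.61), while in FF these values are −0.11 and 0.29.

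The groups also had different means in both measures, with overlap and no test. The total count was 13736900 ± 1172900 in FF and 15358100 ± 1660510 in RES, and the number of identifiers 23338 ± 409 and 22952 ± 630 (SD, n = 13 and 14). With the number of identifiers as a covariate in edgeR, 2 of the 65 members were called (MRPL46 and MRPL20), against a background of 4.09%. The median log2 fold change was 0.13. With the total count as a covariate MRPL46 alone was called, against 2.47%, and the median was 0.12. In these fits 53 and 52 of the 65 genes were above 0, against 47.1% and 48.7% of all identifiers. MRPL20 was at 0.47 with the total count (adjusted p = 0.085). The 17 called genes had log2 fold changes of 0.23 to 0.53 with the number of identifiers and 0.18 to 0.48 with the total count. The part of these measures in the difference between the diets was not tested beyond these fits. MRPL46 kept log2 fold changes of 0.53 (adjusted p = 0.0177) and 0.48 (adjusted p = 0.0295) in these 2 fits.

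Within the upper quality group (7 FF and 7 RES sows) 7 members were called, MRPL46, MRPL20, MRPS25, MRPL11, MRPL17, MRPL55 and MRPS26, which is 10.8% of the 65 beside a background of 14.3%. Their median was 0.25, with 57 genes above 0, where 50.2% of all identifiers lay above 0. MRPS26 was at 0.45 there (adjusted p = 0.016) and at 0.03 in the lower group. Within the lower quality group (6 FF and 7 RES sows) edgeR called no member and none of all 17467 identifiers. At an unadjusted p under 0.05 stood 13 of the 65 members, beside 12.4% of all identifiers. The median was 0.24, and 62 of the 65 genes lay above 0, against 46.9%. All 17 genes called over both groups were above 0 in each. The test of the difference between the quality groups called no member, with none at an unadjusted p under 0.05 (11.0% of all identifiers) and a lowest adjusted p of 0.47, beside 1 identifier or 0.00573% overall.

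The sows of the diets were similarly spread. The SD of log2(CPM + 1) between sows had a median over the 65 genes of 0.29 in FF and 0.30 in RES, and 36 genes (55.4%) had the larger SD in RES. Of the 13073 identifiers within the same range of levels, 49.1% did, with medians of 0.31 and 0.30. Without FF sow 10 and RES sow 3 the medians were 0.26 and 0.28, and the SD was larger in RES for 37 genes (56.9%) beside 55.5% of those identifiers. The SD over all libraries, which includes the difference between the diets, was largest for MRPS6, with 0.79 within FF and 0.52 within RES. MRPL51 (0.48 and 0.46), MRPL33 (0.67 and 0.34) and MRPL3 (0.70 and 0.25) followed. Within RES the SD was largest for MRPL49 (0.53). Without FF sow 10 the FF values of MRPL3 and MRPL33 were 0.38 and 0.35. MRPL33 had 6.81 CPM in FF sow 10 and at least 22.2 CPM in the other FF sows. MRPS22 (0.15 and 0.14), MRPL39 (0.17 and 0.20) and MRPS5 (0.20 and 0.18) varied least.

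**Figure D5:**
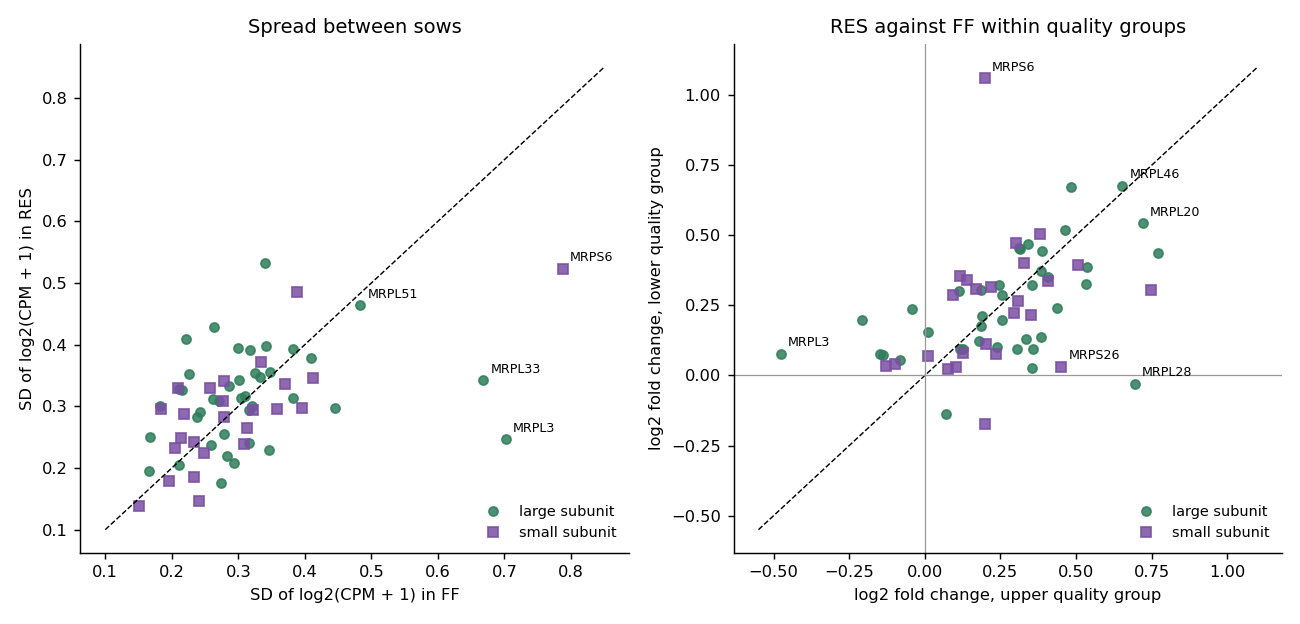
Left, SD of log2(CPM + 1) between FF sows (x axis) and between RES sows (y axis) for each of the 65 genes; right, log2 fold change of RES against FF in the upper (x axis) and lower (y axis) quality group, with dashed lines where both are equal. MRPS6, MRPL3 and MRPL33 have a larger SD in FF, and 54 of the 65 genes lie above 0 in both quality groups.

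The other genes of mitochondrial translation were described by the same counts, to be read beside the 13.0% called and 47.1% above 0 over all identifiers, with no test between groups. Of 5 mitochondrial ribosomal proteins with other symbols, GADD45GIP1, a large subunit protein, was called at 0.60 (SE 0.13, adjusted p = 0.0039), and all 5 were above 0 with a median of 0.24. None of the 24 tested ribosome assembly factors was called, with a median of 0.09 and 18 of them above 0. Among the 15 translation and mRNA stability factors SLIRP, which protects mitochondrial mRNAs together with LRPPRC, rose by 0.74 (SE 0.16, adjusted p = 0.0034) and the release factor homologue MTRFR by 0.71 (SE 0.17, adjusted p = 0.0074). Of 21 genes for the charging of mitochondrial tRNAs, GARS1 (0.28, adjusted p = 0.025) and QRSL1 (0.48, adjusted p = 0.0029) were called. That list had a median of 0.09, or 0.18 within the upper and 0.0097 within the lower quality group. The 13 mRNAs that the mitochondrial ribosome translates had a median of 0.13 (0.04 within the upper and 0.28 within the lower quality group), and none was called. Their summed level was 72862 to 156055 CPM in FF and 95169 to 211844 CPM in RES.

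Of 15 tested nuclear regulators of mitochondrial genes, TFAM, which binds and packages mitochondrial DNA, rose by 0.40 (SE 0.099, adjusted p = 0.0092) and GABPB1, the subunit that gives GABP its activation domain, by 0.32 (SE 0.084, adjusted p = 0.013). Their median was 0.18 over both quality groups, 0.35 within the upper and 0.05 within the lower. NRF1 was at 0.20 (adjusted p = 0.093), GABPA at 0.14 (adjusted p = 0.23) and YY1 at −0.05 (adjusted p = 0.60). Among 32 subunits of respiratory complex I 2 were called, NDUFA8 (0.46) and NDUFB8 (0.44), and all 32 were above 0 with a median of 0.28. This median was 0.24 within the upper and 0.43 within the lower quality group, and their mean followed that of the 65 genes with an r of 0.93 over the libraries. Of 54 cytosolic ribosomal protein genes 5 were called and 53 were above 0, with a median of 0.22 and an r of 0.76. Of 11 proliferation genes 9 rose, with a median of 1.07 and an r of 0.67. These r values pool both diets. Within FF and RES they were 0.90 and 0.95 for complex I, 0.61 and 0.81 for cytosolic ribosomal proteins, and 0.32 and 0.72 for proliferation. Without the 2 farthest libraries of each measure, the FF values were 0.69, 0.19 and 0.36. The RES values were then 0.92, 0.77 and 0.67.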

How the data were processed

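RNA-seq of laser-captured mural GCs was used from 13 FF and 14 RES sows. The authors removed ribosomal RNA, aligned reads with HISAT2 2.2.1 to Sscrofa11.1, removed PCR copies with UMI-tools 1.1.4 and deposited whole-number counts per Ensembl gene (release 110 in the file headers) from featureCounts 1.6.2, not normalized and without a strand option. Counting therefore cannot separate genes that overlap on opposite strands.

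The 17467 of 35670 identifiers whose mean count reached 5 were tested with edgeR 4.0.16 (TMM factors, quasi-likelihood test, no covariate, Benjamini-Hochberg adjustment over all of them, R 4.3.3), and this was tested on simulated data. SEs were derived from the F statistics. CPM uses TMM library sizes. Symbols came from a table pairing identifiers with names, positions from RefSeq for all 65 genes by symbol. Alternatives were DESeq2 1.42.0, its size factors, upper-quartile factors, other filters, a replicate block, quality covariates and groups, limma 3.58.1 with sample weights, and each library left out. Named genes were all called members, the 3 highest and the lowest per kilobase, the 3 most and 2 least variable and the 2 largest uncalled changes and the lowest change per subunit, and those that followed the others most and least. MRPS11 and others outside this rule were named after their values were seen. Members and lists were chosen with earlier results of these data known. Correlations are descriptions. Base quality per library came from the study's supplementary list.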

Additional observations from a re-analysis of the deposited data

How the results depend on the processing

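Of 15 alternative fits besides leaving out 1 library, 11 kept the count of called members within 1.5 times of 17, and none called a member lower. The upper quality group gave 7 and the lower 0, beside 14.3% and 0.0% of all identifiers. Both hold fewer sows, and the part of this in the counts was not tested. The count was 2 with the number of identifiers and 1 with the total count as a covariate, beside 4.09% and 2.47%. Both covariates were chosen after seeing the data. Without 1 library the count was 14 to 20, and the shares over all identifiers in those fits are not given here. The median of all members was 0.12 to 0.28 over all alternatives. With a replicate block on the sow numbers, for the 13 numbers present in both groups, 13 members were called, beside 8.67% of all identifiers. The same libraries without the block gave 14, with the share over all identifiers not given here. The numbers do not pair the sows: same-numbered sows deviated together with a median r of 0.04 (−0.29 to 0.32), and no sow correlated best with its own number.

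Of the 32 genes that the naming rule picked, direction changed in 8, none of them called, and the cause was not tested. Of the other genes the text mentions, MRPL34, MRPL54, MRPL12, MRPS9 and MRPS18A, all uncalled, also changed direction in a quality group or without 1 library. In the lower quality group MRPL3 was at 0.078, MRPL28 at −0.029, MRPL10 at 0.072, MRPS22 at 0.040, MRPS18B at 0.035, MRPL49 at 0.077 and MRPS2 at −0.17. MRPL33 was at −0.044 in the upper quality group, −0.025 without FF sow 10 and RES sow 3 together, −0.092 with the number of identifiers and −0.086 with the total count as a covariate. MRPL49 was at 0.0055 and 0.017 with these covariates. MRPS2 was at −0.051 with upper-quartile factors, −0.039 with named identifiers alone, −0.0068 with filterByExpr, −0.0093 with the replicate block, −0.16 with voom, −0.11 without both sows, −0.18 with the number of identifiers and −0.088 with the total count. Without 1 library MRPS2 ran from −0.14 to 0.072, MRPL33 from −0.0094 to 0.17, MRPL10 from −0.070 to 0.0048 and MRPL49 from −0.13 to 0.012. The number of sows, and in the lower quality group the absence of any call, limit what these counts can show.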
